A study of Bos taurus with 6 samples.

Results

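The autosomal regions in which a peak was called in 1 library only were examined in the MAT2A chromatin immunoprecipitation sequencing (ChIP-seq) data of bovine blastocysts. Peaks of all 6 libraries that overlapped by at least 1 bp were merged into regions, and the regions were chosen by their calls: those on chromosomes 1 to 29, starting at position 1000000 or above, with a peak from exactly 1 library. This gave 3498 regions, which was 75.5% of the 4633 autosomal regions above that position and part of 5619 regions in all. Each of the 3498 held a single peak, so its width and score are those of that peak. The other 1135 autosomal regions, with peaks from 2 or more libraries, are called recurrent here, and 435 of them had a peak in every library.

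The libraries came from in vitro produced bovine blastocysts, obtained by in vitro fertilisation and collected on day 8 (192 h after insemination). Whole blastocysts were pooled, 669 in pool 1 and 677 in pool 2, so a library averages over many embryos and over their cell types, and no embryo was treated or genetically altered. From each pool, portions of the same sheared chromatin were made into 3 libraries, namely Input (not immunoprecipitated), MAT2A-ChIP (precipitated with the anti-MAT2A mouse monoclonal antibody ab86424) and IgG control (precipitated with a mouse IgG2B isotype control). Each library type therefore had 2 libraries, numbered by pool, and the 6 lists held between 1788 and 2094 peaks.

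MAT2A is the catalytic subunit of the methionine adenosyltransferase that makes S-adenosylmethionine, the methyl donor for methylation of DNA and histones, and the protein has also been described in chromatin complexes that regulate transcription. In ChIP-seq an antibody enriches the DNA that its target contacts, whereas an isotype control antibody recovers DNA without a specific target and Input shows how evenly sheared chromatin itself is sequenced and mapped. A peak caller marks positions where reads exceed a local expectation, so a genuine binding site, an unevenly mapped sequence and a sampling fluctuation can all give a peak. A region without a peak in a library may still hold reads that stayed below the threshold, hence a region called once is not a measured difference between that library and the other 5.

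Single-library regions were counted in each list first. In pool 1 there were 388 in Input, 812 in MAT2A-ChIP and 748 in IgG control. In pool 2 the counts were 301, 605 and 644 in the same order. Both Input libraries thus had fewer than any immunoprecipitated library. Input minus MAT2A-ChIP was -424 in pool 1 and -304 in pool 2, and Input minus IgG control was -360 and -343. By library type the mean was 344.5 ± 61.5 in Input libraries, 708.5 ± 146 in MAT2A-ChIP libraries and 696 ± 73.5 in the IgG controls (SD, n = 2). MAT2A-ChIP and IgG control did not differ beyond their replicates: MAT2A-ChIP minus IgG control was 64 in pool 1 and -39 in pool 2, while replicates of one type differed by 207 for MAT2A-ChIP and by 104 for IgG control. No test was made, because the regions were selected on the calls and 2 libraries against 2 cannot give a two-sided exact p below 0.333.

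**Figure D1:**
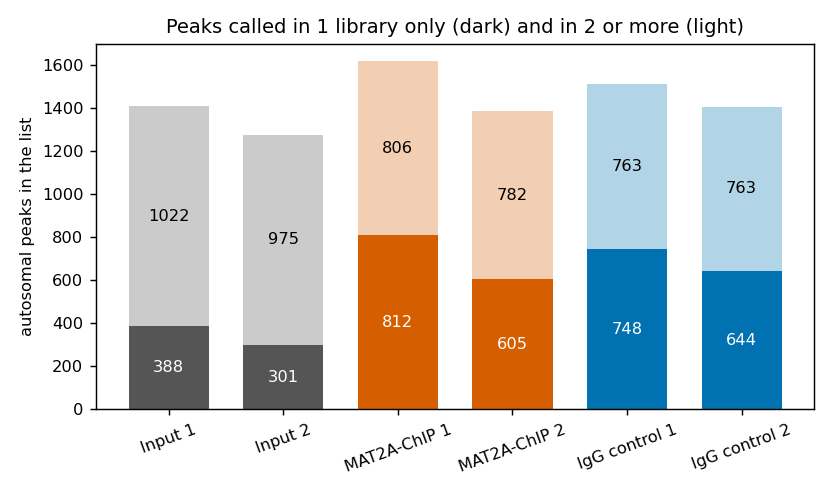
Autosomal peaks in each of the 6 libraries, divided into peaks of single-library regions (dark) and of recurrent regions (light), with the counts printed on bars that start at 0. The share of dark peaks is lower in both Input libraries (27.5% and 23.6%) than in the 4 immunoprecipitated libraries (43.6% to 50.2%).

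The counts were also set against the length of each list, as Input had fewer autosomal peaks than the immunoprecipitated libraries of its pool. Among the autosomal peaks of pool 1, 27.5% of 1410 in Input (95% Wilson interval 25.3 to 29.9%), 50.2% of 1618 in MAT2A-ChIP (47.8 to 52.6%) and 49.5% of 1511 in IgG control (47.0 to 52.0%) were called in no other library. In pool 2 the shares were 23.6% of 1276 (21.3 to 26.0%), 43.6% of 1387 (41.0 to 46.2%) and 45.8% of 1407 (43.2 to 48.4%). These intervals cover counting error only. Replicates differed by 3.93 percentage points in Input, 6.57 in MAT2A-ChIP and 3.73 in IgG control, whereas Input minus either immunoprecipitated type was between -20.0 and -22.7 points. Of the bases covered by autosomal peaks, single-library regions took 19.6% and 16.5% in the Input libraries and 36.3% to 42.1% in the others.

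The order of these counts depended on weak peaks. When only peaks with a score of 70 or more were merged, the Input libraries had the most single-library regions (145 and 107) and the immunoprecipitated libraries 36 to 52. This defines the set anew, because a region recurrent in the full lists becomes single when its other peaks fall below the minimum. Of these regions, 95 and 68 in Input and 22 to 32 in the others were members in the full lists. Input also kept more autosomal peaks at that minimum (954 and 904) than the other libraries did (611 to 660). Per 100 of these peaks there were 15.2 and 11.8 single-library regions in Input and 5.78 to 8.10 in the others, so the order turned on this scale too. With a minimum score of 100 the counts were 101 and 73 against 17 to 23, or 14.7 and 11.04 against 4.22 to 5.31 per 100 peaks. Of these regions, 22 and 21 in Input and 1 to 9 in the others were members in the full lists, and the rest were recurrent there. The score is -10 times the log10 of the p-value of a peak, starts at 50 because peaks were called at 1e-05, and grows with sequencing depth as well as with enrichment, so it is compared here mainly by its rank within a list. By the mapped reads that the study lists, Input was the deepest library of each pool, and the part of depth in these counts was not tested.

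Single-library regions lay low in the score order of their lists. The median member ranked above 15.3% of the peaks of its list in Input 1 and above 15.1% in Input 2. The corresponding values were 24.5% in MAT2A-ChIP 1, 21.3% in MAT2A-ChIP 2, 24.1% in IgG control 1 and 21.6% in IgG control 2. Both Input medians were below those of all 4 immunoprecipitated libraries. Replicates differed by 0.234 points in Input, 3.18 in MAT2A-ChIP and 2.49 in IgG control, whereas Input minus an immunoprecipitated library of the same pool was between -6.21 and -9.15 points. When every list was shortened to its 1788 highest-scoring peaks, Input stayed lowest within each pool, at 26.1% against 32.4% and 28.6% (MAT2A-ChIP and IgG control) in pool 1 and 18.6% against 21.5% and 24.8% in pool 2. Across pools the types then overlapped, as Input 1 lay above both immunoprecipitated libraries of pool 2. For reference, peaks in regions shared by 2 libraries had median ranks of 35.6% to 51.4%, and peaks in regions shared by all 6 had 82.0% to 85.3%. These ranks are a description of the members, since the score is the value by which a peak was called.

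The score itself was close to the calling limit. The median was 56.89 and 57.15 in Input 1 and 2, and 53.32 to 54.14 in the 4 immunoprecipitated libraries. Scores below 55 were held by 42.3% and 43.9% of Input members and by 55.4% to 63.5% of the members in the other libraries. Input members therefore sat lower within their own lists but had higher scores. In peaks of recurrent regions the medians were 105.7 to 138.4. No single-library region was found in the top decile of any list, and between 27 and 61 per library ranked in the upper 50% of scores.

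Across deciles of the score the libraries separated in the lower middle of the lists. In the lowest decile 84.4% and 81.4% of the autosomal Input peaks were single-library regions, compared with 89.1% to 92.7% of the immunoprecipitated peaks. In decile 3 the shares were 44.0% in both Input libraries and 85.1% to 88.9% in the others. In decile 5 they were 19.7% and 12.8% against 39.3% to 66.7%. The Input lists thus passed from mostly single to mostly recurrent peaks at a lower rank than the immunoprecipitated lists did. This holds for ranks and not for equal scores, because the same decile covers different scores in different lists. Scores near 60.8 fell in decile 3 of Input 1 but in decile 5 of MAT2A-ChIP 1 and 2. The single-library shares of those deciles were 44.0%, 65.7% and 39.3%. By decile 7 all 6 libraries were between 3.6% and 7.8%.

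**Figure D2:**
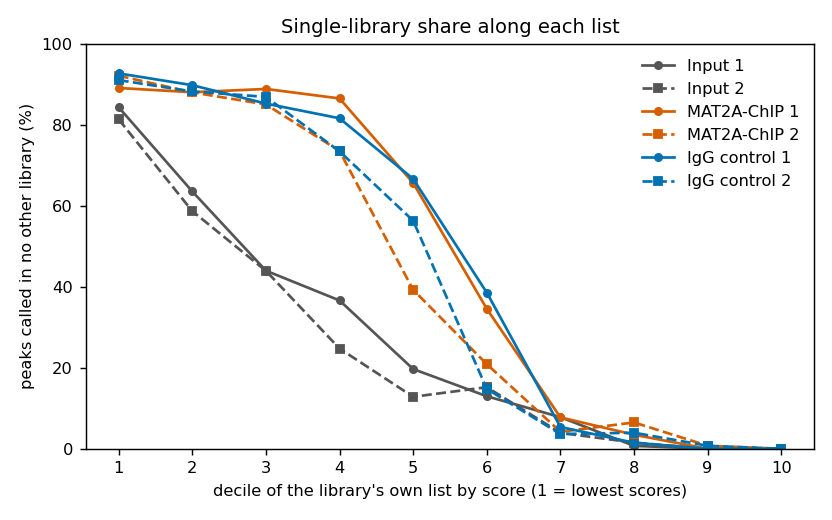
Share of autosomal peaks that are single-library regions, in percent, in each decile of a library's own list by score, with 1 line per library. Input falls to 44.0% by decile 3, where the 4 immunoprecipitated libraries are at 85.1% to 88.9%, and every line is at 0 in decile 10. Deciles are not matched for score between libraries.

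Members with high scores were few. A score of 100 or more was reached by 22 and 21 members in Input 1 and 2, 4 and 9 in MAT2A-ChIP 1 and 2, and 1 and 6 in IgG control 1 and 2. Of these 63 regions, 43 came from Input, 13 from MAT2A-ChIP and 7 from IgG control. Input had more peaks of such scores in all, 687 and 661 on the autosomes against 403 to 452 in the other libraries, and in recurrent regions too 65.1% and 65.6% of its peaks reached 100, against 52.7% to 57.5%. Members made up 3.20% and 3.18% of the autosomal Input peaks at 100 or more, 0.885% and 2.08% in MAT2A-ChIP and 0.248% and 1.35% in IgG control. The 63 regions differed from the bulk of members in form: 45 (71.4%) were narrower than 200 bp, against 250 (7.15%) of all members, and 34 (54.0%) lay within 10 kb of a recurrent region, against 260 (7.43%). These pooled values mix library types. Input supplied 43 of the 63, and its members as a whole were more often narrow (16.8% and 15.0%) and near (20.4% and 25.2%). Within Input 1 and 2, 11 of 22 and 13 of 21 high-scoring members lay within 10 kb.

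The 3 highest-scoring members of each library are identified by position on bosTau8, since the sequence and gene annotation of these regions were not analysed here. Among the 18 regions, 14 were narrower than 200 bp and 14 lay within 30 kb of a recurrent region, while the remaining 4 were over 1 Mb from one. The highest score of all belonged to chr9:45079454-45079570 in MAT2A-ChIP 2, 117 bp wide with a score of 193.00 and a rank above 88.2% of its list. The nearest region to it, 12.2 kb away, was called in both IgG control libraries. In IgG control 2 the highest member was chr26:38917435-38918064, which scored 173.51 over 630 bp and was 1712 kb from the nearest recurrent region. The Input libraries were led by chr22:53652222-53652370 in pool 2 (score 164.08, 149 bp) and chr27:28712802-28712965 in pool 1 (score 162.73, 164 bp), at 2.14 kb and 8.57 kb from a recurrent region. Thus 3 of the 4 leading members described so far were short and had a recurrent region at 12.2 kb or less, and the IgG control 2 member was long and isolated.

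In MAT2A-ChIP 1 the leading member was chr14:45130064-45130210, with a score of 132.75 over 147 bp, 2085 kb from the nearest recurrent region. Its counterpart in IgG control 1 was chr17:51242489-51242777, with a score of 100.21 over 289 bp, and a region called in all 6 libraries lay 0.695 kb away. The leading scores of the 6 lists therefore ran from 100.21 to 193.00, and those of MAT2A-ChIP 1 and MAT2A-ChIP 2 (132.75 and 193.00) enclosed those of both Input libraries and of IgG control 2. Close neighbours of different type also occurred among these members. The third-ranked member of IgG control 1, chr18:18175745-18176014 (score 93.43), lay 197 bp from a region called only in MAT2A-ChIP 2 and 6729 kb from the nearest recurrent region.

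Width differed little between library types. The median was 283 bp and 276 bp in Input 1 and 2, 267 bp and 276 bp in MAT2A-ChIP 1 and 2, and 279 bp and 286 bp in IgG control 1 and 2. By type this was 279.5 ± 4.95 bp, 271.5 ± 6.36 bp and 282.5 ± 4.95 bp (SD of the library medians, n = 2). The ranges of Input and MAT2A-ChIP met at 276 bp, and replicates differed by 7 to 9 bp, so Input was not separated from either other type. MAT2A-ChIP medians were lower than those of IgG control in both pools (-12 bp and -10 bp), a difference just above that between replicates. In every library single-library regions had a lower median than the peaks of recurrent regions in the same list, which was 289 to 326 bp.

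The spread of widths separated the types more than the median did. Members narrower than 200 bp made up 16.8% and 15.0% in the Input libraries, 5.30% and 6.94% in MAT2A-ChIP, and 4.01% and 3.88% in IgG control. The 3 pairs of replicates did not overlap one another, with Input highest. Among peaks of recurrent regions the same share was 22.4% to 30.4% in all 6 libraries, where Input was not the highest. The interquartile range in Input 1 was 235 to 320 bp, the widest of the 6, and in MAT2A-ChIP 1 it was 242 to 287 bp.

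A single member stood apart in width. The widest was chr17:25040504-25044555 in IgG control 1, at 4052 bp, with a score of only 59.40 and a region called in all 6 libraries 8.00 kb away. The widest members of the other lists measured 929 bp in Input 1, 879 bp in Input 2, 718 bp in MAT2A-ChIP 1, 580 bp in MAT2A-ChIP 2 and 875 bp in IgG control 2. All 6 lay within 30 kb of a recurrent region, the farthest being that of Input 1, chr26:50594067-50594995, at 28.96 kb.

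**Figure D3:**
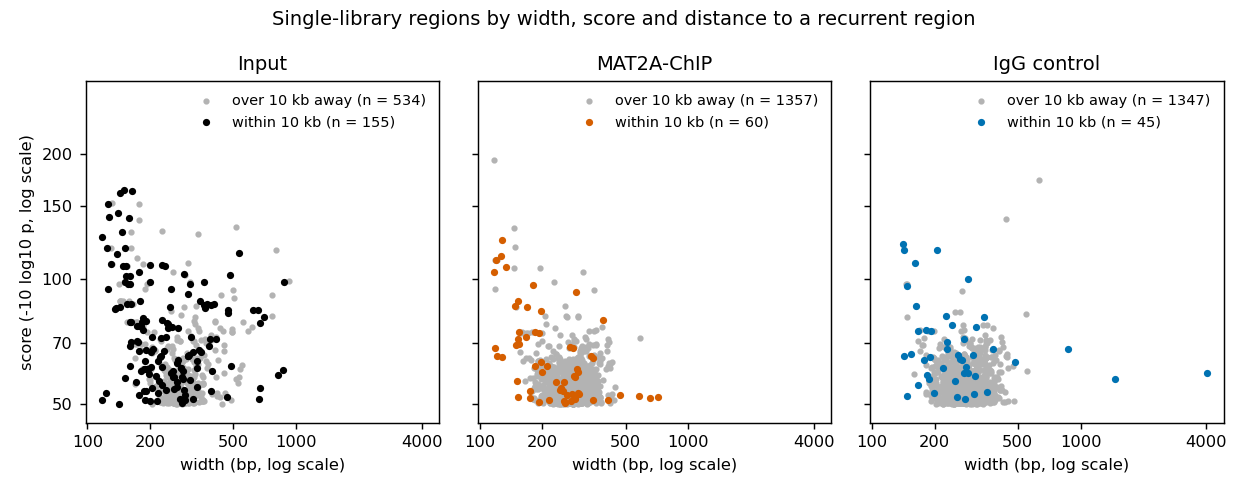
Width in bp against score of every single-library region, both on log axes, with 1 panel per library type; grey points lie over 10 kb from a recurrent region and black or coloured points within 10 kb. Most members lie between 200 and 400 bp at scores under 70, and of the 63 members with a score of 100 or more 45 are narrower than 200 bp. Scores of 100 or more are reached by 43 points in Input, 13 in MAT2A-ChIP and 7 in IgG control.

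Distance to recurrent regions also differed between Input and the immunoprecipitated libraries. Within 10 kb of a recurrent region lay 79 members (20.4%, Wilson interval 16.7 to 24.6%) of Input 1 and 76 (25.2%, 20.7 to 30.4%) of Input 2. In MAT2A-ChIP there were 27 (3.33%, 2.30 to 4.79%) in pool 1 and 33 (5.45%, 3.91 to 7.56%) in pool 2. In IgG control there were 17 (2.27%, 1.42 to 3.61%) and 28 (4.35%, 3.03 to 6.21%). Input was higher by 17.0 to 20.9 percentage points within a pool, and replicates differed by 2.08 to 4.89 points. When lists were merged anew at a minimum score of 70, the shares were 51.7% and 54.2% in Input and 27.0% to 34.6% in the other libraries. These are shares of a different set, as the minimum redefined both single-library and recurrent regions. In Input 1 and 2, 95 of 145 and 68 of 107 such regions were members in the full lists. In the full lists MAT2A-ChIP exceeded IgG control by 1.05 points in pool 1 and 1.11 in pool 2. Replicates of either type differed by more, but in the same direction. Replicate 1 minus replicate 2 was -2.13 points in MAT2A-ChIP and -2.08 in IgG control. The difference between the types thus kept its sign in both pools, and it was not tested.

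The same order held at other distances. Within 1 kb lay 10.3% and 10.6% of Input members and 1.07% to 2.15% of the others, and within 100 kb 33.0% and 35.9% against 6.42% to 11.6%. The median distance was 689 kb in Input 1 and 782 kb in Input 2. It was 2209 and 2211 kb in MAT2A-ChIP and 2056 and 2262 kb in IgG control. Most immunoprecipitated members of the full lists were therefore remote from any recurrent region, with 68.6% to 72.2% farther than 1 Mb, compared with 46.6% and 47.2% in Input. When recurrent regions were restricted to the 435 called in all 6 libraries, 10.6% and 12.0% of Input members and 1.47% to 3.14% of the others were within 10 kb. When lists were merged anew at a minimum score of 100, the separation was no longer complete. The share in MAT2A-ChIP 1 (56.5% of 23 regions) exceeded those of both Input libraries (49.5% and 49.3%). MAT2A-ChIP 2 (39.1%) and IgG control 1 and 2 (17.6% and 35.0%) stayed below Input. Of the 23 regions of MAT2A-ChIP 1, 4 were members in the full lists.

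**Figure D4:**
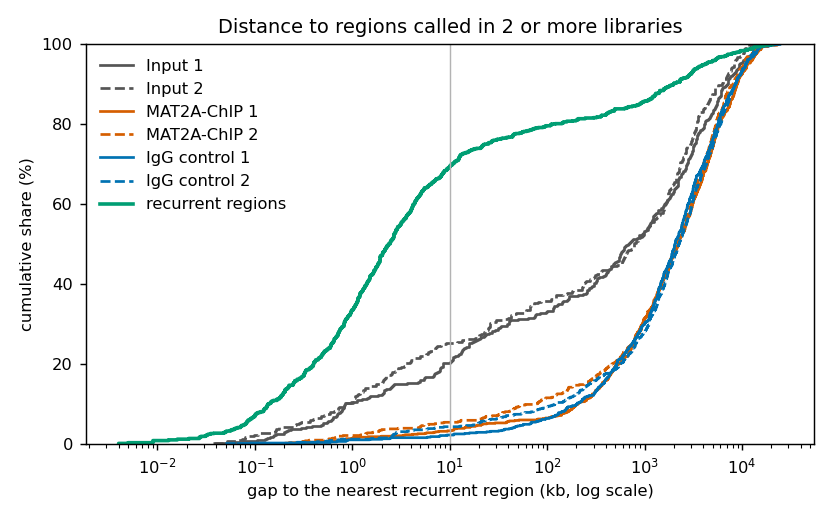
Cumulative share of single-library regions, in percent, by distance to the nearest recurrent region in kb (log axis), 1 line per library, beside the distance between neighbouring recurrent regions. At 10 kb the Input lines are at 20.4% and 25.2% and the other libraries at 2.27% to 5.45%, while 69.3% of recurrent regions have another within 10 kb.

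Members close to recurrent regions differed in shape from remote ones in all 6 libraries. In Input 1 the median width was 221 bp within 10 kb and 288 bp beyond, and the median score 70.59 and 55.44. In MAT2A-ChIP 2 the widths were 197 and 278 bp and the scores 60.55 and 53.3. Nearby members were thus both narrower and higher in score. The share narrower than 200 bp was 35.3% to 54.5% nearby and 2.27% to 10.0% beyond, with no overlap between the 2 ranges. This difference was not tested, as peaks of a list are not replicates.

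Recurrent regions were themselves clustered, with a median of 2.36 kb to the next, and members sometimes joined these clusters. Members were grouped where neighbours lay less than 100 kb apart. This gave 2817 groups, of which 2390 were a member alone (68.3% of members), 329 held 2, 74 held 3 or 4 and 24 held 5 or more. The 24 large groups held 216 members. They took in 17.5% and 17.9% of Input members but 2.83% to 3.97% of members in the other libraries. Correspondingly, 50.8% and 54.5% of Input members stood alone, against 70.3% to 74.9% of the others.

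The largest group was chr27:28494548-28793662, with 23 members over 299 kb. It held 9 members from Input 1, 7 from Input 2, 3 from MAT2A-ChIP 2, 2 from each IgG control library and 0 from MAT2A-ChIP 1. Within it lay 21 recurrent regions, 5 of them called in all 6 libraries, and 17 of the 23 members were within 10 kb of a recurrent region. The median score of these members was 65.89 and the highest 162.73, the leading Input 1 member given above. Input thus supplied 16 of the 23, while Input 1 and 2 held 388 and 301 of all 3498 members.

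The share of Input varied among the 10 groups of 9 or more members, and those described next were chosen after their values were seen. A group at chr1:145226528-145451650 held 20 members, 14 of them from Input, among 65 recurrent regions. At chr8:74541828-74802740 there were 15 members, 13 from Input and 2 from MAT2A-ChIP 2, with a median score of 86.18 and a median width of 178 bp. Members from all 6 libraries were present in 4 of the groups, a condition that itself limits the part of Input in groups of this size. Input supplied a smaller part there than in the groups above, but not a smaller part than among all members. The 4 groups were chr18:57426694-57733623 with 2 of 9 members from Input, chr29:5577091-5770501 with 3 of 9, chr17:51127378-51267278 with 4 of 10 and chr8:70817419-71169584 with 5 of 10. The last of these held 1 recurrent region and no member within 10 kb of it. With the groups of 5 or more left out, 11.3% and 15.4% of Input members and at most 2.93% of the others remained within 10 kb of a recurrent region.

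Members were found on all 29 autosomes in each library. Their number followed the span of the chromosome, taken as the end of the last region on it, closely in the immunoprecipitated libraries, with Pearson's r over the 29 chromosomes of 0.939 and 0.853 in MAT2A-ChIP 1 and 2 and 0.886 and 0.893 in IgG control 1 and 2. In Input 1 and 2 the values were 0.675 and 0.514. With the number of recurrent regions on a chromosome the correlation was 0.57 and 0.60 in Input, 0.439 and 0.399 in MAT2A-ChIP, and 0.346 and 0.351 in IgG control. Input members thus tracked chromosome span less, and recurrent regions more, than members of the other libraries did. These coefficients are descriptions, since all libraries share the same chromosomes and larger chromosomes offer more room to both kinds of region (r = 0.307 between recurrent regions and span). They also rest on fewer members in Input (388 and 301) than in the other libraries (605 to 812), and the part of this in the coefficients was not tested.

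Recurrent regions were unevenly spread, from 6 on chromosome 12 to 103 on chromosome 1. Chromosomes 1, 6, 8, 17 and 29, the 5 with the most, carried 39.4% of recurrent regions on 20.5% of the autosomal span. Input placed 25.3% and 28.2% of its members there, MAT2A-ChIP 22.5% and 20.0%, and IgG control 21.1% and 21.3%. The shares of the immunoprecipitated libraries, 20.0% to 22.5%, were therefore near the share of span, and those of Input lay between it and the share of recurrent regions.

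Per 10 Mb the density of members averaged 1.57 and 1.22 in Input 1 and 2, 3.29 and 2.45 in MAT2A-ChIP 1 and 2, and 3.03 and 2.61 in IgG control 1 and 2. Chromosome 27 was the densest in both Input libraries (3.90 and 2.75) and in both MAT2A-ChIP libraries (4.59 and 3.90). In IgG control the densest was chromosome 2 in pool 1 (3.97) and chromosome 16 in pool 2 (3.86), each followed directly by chromosome 27 (3.90 and 3.44). Chromosome 27 also carries the largest group, which held 0 members from MAT2A-ChIP 1. The lowest densities were 0.704 on chromosome 20 and 0.403 on chromosome 26 for Input 1 and 2, the latter from 2 members.

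**Figure D5:**
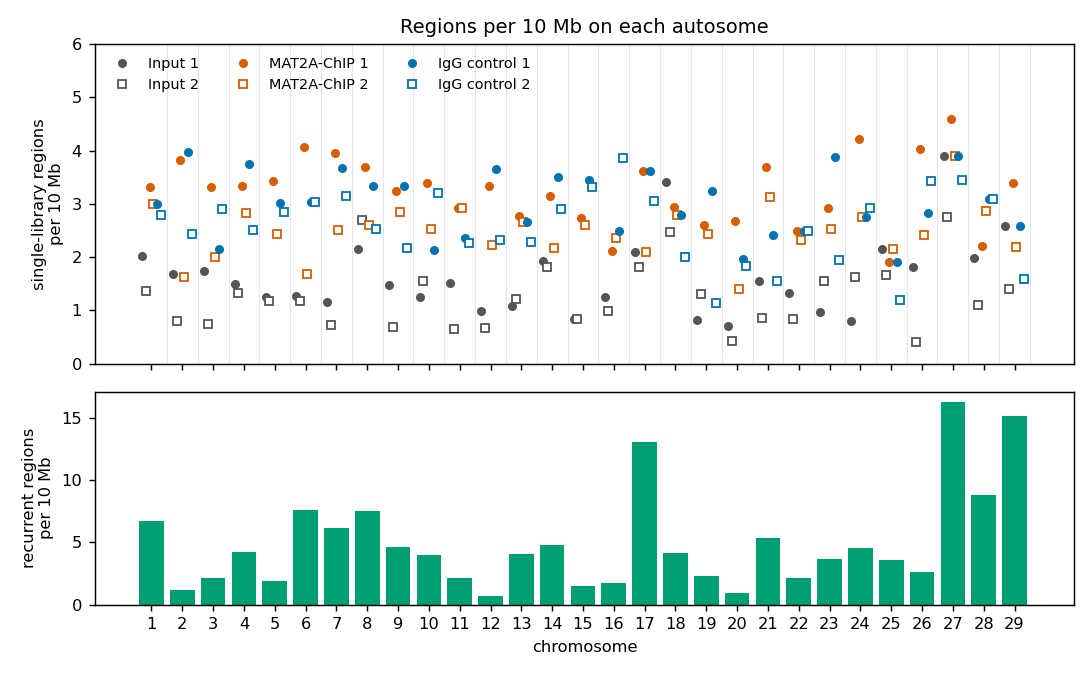
Regions per 10 Mb on chromosomes 1 to 29: single-library regions of each library (upper panel, points) and recurrent regions (lower panel, bars from 0). Chromosome 27 is the densest in both Input and both MAT2A-ChIP libraries and comes next after the densest in both IgG control libraries. Every library has points on all 29 chromosomes.

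The number of regions called in both libraries of a type and in no other was set beside the single-library regions. For Input 95 regions were called in exactly both libraries, which was 12.1% of the 784 regions called in 1 or both Input libraries and nowhere else. For MAT2A-ChIP there were 12 of 1429 (0.840%) and for IgG control 10 of 1402 (0.713%). A type-specific call was thus repeated in the second pool mostly in Input. For pairs of different type the number was 8 (MAT2A-ChIP 1 with IgG control 1), 10 (MAT2A-ChIP 2 with IgG control 2), 12 (MAT2A-ChIP 1 with IgG control 2) and 5 (IgG control 1 with MAT2A-ChIP 2), and it was 6 to 23 when Input was paired with an immunoprecipitated library. The count of the MAT2A-ChIP pair thus equalled the highest count of MAT2A-ChIP with IgG control, also 12, and was above the others. As a percentage of the regions called in 1 or both libraries and nowhere else, it was 0.840% against 0.368% to 0.817% for these cross-type pairs. This small difference was not tested.

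Few members had a close neighbour of any kind. Of the 3498 members, 26 lay within 100 bp of another region, 92 within 500 bp and 158 (4.52%) within 1 kb, and the median distance to any other region was 196.9 kb. These values count recurrent regions and regions of the same library as neighbours, whereas those below count members only. Within 10 kb of a member of the other Input library lay 8.51% of Input 1 and 10.3% of Input 2 members. For MAT2A-ChIP 1 and 2 the share near a member of the other pool was 1.11% and 1.49%, and for IgG control 1 and 2 it was 0.267% and 0.311%. Closeness was not confined to libraries of a type. Between Input and immunoprecipitated libraries, 2.06% to 3.99% of Input members lay within 10 kb of a member of the other library. In the opposite direction, the share near a member of Input 1 was 1.47% in IgG control 1, 2.33% in IgG control 2 and 2.15% in MAT2A-ChIP 2. Each of these was above the share near the other library of the same type. For MAT2A-ChIP 1 both shares were 1.11%.

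The regions at the limits of the rule are given by position. The member with the lowest start was chr29:1003127-1003338 in MAT2A-ChIP 1 (score 60.15), and the closest region below position 1000000 was chr18:992679-992931 in MAT2A-ChIP 2 (score 55.53). The smallest gap between a member and a peak of another library was 14 bp, between chr27:28601325-28601576 in Input 2 (score 83.90) and chr27:28601591-28601867 in Input 1 (score 55.13), both of them members. The smallest overlap that made a region recurrent was 4 bp, between chr28:14554026-14554238 in Input 2 and chr28:14554235-14554437 in Input 1. Both borderline pairs joined the 2 Input libraries, and the pair on chromosome 27 lay inside the largest group of members.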

How the data were processed

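The authors sequenced 6 ChIP-seq libraries (reads of 100 bases), aligned the reads with Bowtie 1.1.2 to bosTau8 without scaffolds and ran MACS 1.4.2 for peak calling, library by library; the submitters' processing notes also name bcl2fastq. The deposited lists give each peak's position and a score, -10 times the log10 of its p-value, with a floor of 50. They hold no read counts, so the number of reads behind a single peak is unknown.

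Positions were taken as BED intervals and are printed counted from 1. Peaks were merged with Python 3.11.15 and pandas 2.3.3, and bedtools 2.31.1 gave the same 5619 regions with 0 differing. The procedure was tested on simulated data. A gap is the number of bases between nearest edges, and a rank is the percentage of a list's peaks with a lower score. The libraries were grouped by their labels, and shares carry 95% Wilson intervals. No test was run. Named regions are the 3 highest-scoring members and the widest of each library, the members at the limits of the rule and the largest group. The members and lists were chosen with earlier results of these data known. Alternatives covered the overlap, score minimum, list length, chromosome limits, definition of recurrent, distance limit, rank, groups of members and each library left out. Sequence and gene annotation were not analysed here.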

Additional observations from a re-analysis of the deposited data

Results flagged for a closer look

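In 5 measures the difference between 2 library types had opposite signs in the pools. Each pool has 1 library per type, and the difference between pools was not tested. MAT2A-ChIP had 64 more single-library regions than IgG control in pool 1 and 39 fewer in pool 2 (a difference of -39). Their share of the autosomal peaks differed by 0.682 percentage points in pool 1 and by -2.15 in pool 2, and the median rank by 0.352 and -0.337 points. The share of members with no other member within 100 kb differed by -4.55 points in pool 1 and by 2.57 in pool 2, again MAT2A-ChIP minus IgG control. The median width of Input members minus that of IgG control members was 4 bp in pool 1 and -10 bp in pool 2.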

How the results depend on the processing

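Of 196 alternative values, 124 stayed close and 72 moved, judged by the replicate SD, by a factor of 1.5 for counts and by the 95% Wilson interval for the single-library share of regions. Input had fewer single-library regions than every immunoprecipitated library in 12 of 14 alternatives, a higher share within the distance limit in 17 of 18 and a lower rank in 14 of 15; the exceptions are the score minimums for the count, the minimum of 100 for the share and lists of equal length for the rank, where Input stayed lowest only within each pool. No paired analysis was possible because the results come from no test; differences between the libraries of a pool are given as values instead. The lists give no reads per region, so regions with reads under the threshold cannot be seen. The score minimums were applied before merging, so the regions counted under them include some that are recurrent in the full lists. The cause of the shifts below was not tested.

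With a minimum score of 70 the single-library share of regions was 32.4%, the counts (Input, MAT2A-ChIP, IgG control, in this order throughout) 126, 42 and 44.5, the median ranks 43.6%, 60.4% and 59.3%, the widths 255, 215.5 and 263.5 bp and the shares within 10 kb 53.0%, 32.3% and 30.8%. With a minimum of 100 these were 28.6%, then 87, 23 and 18.5, then 59.97%, 73.6% and 74.4%, widths of 187.5 and 188.5 bp for MAT2A-ChIP and IgG control, and 49.4%, 47.8% and 26.3%. In lists of equal length the regions share was 72.3%, the ranks 22.3%, 27.0% and 26.7%, and the Input share within 10 kb 28.4%. With gaps of up to 500 bp joined the regions share was 77.2%, the Input rank 14.3% and its share within 10 kb 17.6%. Including the first 1000000 bases gave 73.3%, 16.1% and 26.3%, and including chromosome X 71.2%, 16.4% and 28.8%, with 6.38% and 5.75% for MAT2A-ChIP and IgG control. Ranks among autosomal peaks alone were 16.4%, 26.2% and 26.4%. The share near regions called in all 6 libraries was 11.3%, 2.31% and 1.67%, within 1 kb 10.5%, 1.81% and 1.16%, and within 100 kb 34.4%, 9.05% and 7.79%. Without groups of 5 or more members, an alternative chosen after seeing the data, it was 13.3%, 2.41% and 1.31%, and the Input rank 12.7%. Leaving out each library in turn gave a regions share of 71.8% to 77.1%, Input ranks of 15.6% to 19.9%, Input shares within 10 kb of 23.2% to 32.8% and MAT2A-ChIP shares of 3.52% to 6.02%. The highest Input values came without Input 1, where its rank was 19.9% and its share 32.8%. Leaving out 1 Input library makes the 95 regions called in exactly both Input libraries single by definition. Without Input 1 the single-library regions of Input 2 rose from 301 to 400, so these values describe a changed set.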

Other observations

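Regions called in 1 library only also occurred outside the autosomal limits. On chromosome X they made up 19.7% and 12.0% of the peaks in Input 1 and 2 (83 and 48 regions), 14.6% and 12.8% in MAT2A-ChIP (49 and 36), and 15.5% and 15.2% in IgG control (45 and 50). Every library thus had a lower share there than on the autosomes, and Input was not separated from the other types. In the first 1000000 bases of the autosomes there were 34 and 18 in Input (17.8% and 10.2% of the peaks there), 13 and 8 in MAT2A-ChIP (9.22% and 6.72%), and 13 and 11 in IgG control (9.70% and 7.69%). Input thus had the highest share of its pool in this stretch, whereas it had the lowest in the rest of the autosomes, and this was not tested.

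Equal scores were frequent among single-library regions. A score held by 3 or more peaks of the same list was found in 25.2% and 28.9% of Input members and in 37.5% to 40.6% of the others, and in 11.4% to 16.1% of peaks in recurrent regions. The commonest score among the members of a list was shared by 6 to 11 members, for example 60.82 by 11 members of Input 1.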
